A study of Mus musculus with 16 samples.

Results

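VEGF-A, vascular endothelial growth factor A, was injected into the eyes of mouse pups, and the RNA of the whole retina was compared with that of pups given hFc, a human Fc protein used as the control. The comparison takes every array labelled VEGFA, 5 in all, against every array labelled hFc, 4 in all, which makes 9 of the 16 arrays of the series, and it covers all genes measured. The pups of both groups were C57Bl6 and 8 days old at injection. VEGF-A was given at 1 microgram and hFc at 4 micrograms into the vitreous, so the protein doses differed, and retinas were taken 24 hours later. Each sample was labelled with Cy3 and hybridised against a Cy5-labelled pool of equal amounts of RNA from the experiment, so every level below is a log2 ratio of sample over that pool, and every change is VEGF-A minus hFc on the log2 scale. The labels do not say whether the arrays came from separate animals, and p-values measure only the spread between these arrays. VEGF Trap (3 arrays; dose, age and route not stated in the labels) and Dll4-Fc (4 arrays; 4 micrograms) were the remaining groups of the series, and they entered the same fit.

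VEGF-A binds the receptor tyrosine kinase VEGFR2 on endothelial cells and drives their division, migration and leakiness. In the mouse retina the vessel network is still growing at this age: a flat superficial plexus has spread from the optic nerve and sprouts are diving into the deeper layers. Endothelial cells are a small share of the retina, so most transcripts measured come from neurons and glia, and fewer cells of a type and less RNA per cell cannot be told apart in these bulk samples.

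Of 22820 genes tested, 2787 were called at a Benjamini-Hochberg adjusted p under 0.05 in limma, which is 12.2% of them. Rises made up 1597 genes (7.00%) and falls 1190 (5.21%), and these shares are the background against which each family below is read. The rises were the larger changes: 365 genes rose at least 2-fold and 78 at least 4-fold, against 41 and 3 that fell by as much. The number of falls depended on single controls: it was 689 without hFc 2 and 723 without hFc 3, while the rises numbered 1275 and 1297. It was 1800 with VEGF-A 1 and 2 alone, which shared a slide, and 830 with VEGF-A 3, 4 and 5 alone, which shared another. Most falls were small, with 1014 of 1190 under 1.5-fold, while 858 of the 1597 rises were. Among genes measured on at least 3 hFc and 4 VEGF-A arrays, the 2 groups did not overlap in 15.4% (3320 of 21578). All 5 VEGF-A arrays lay above all 11 other arrays of the series for 982 of the risen genes, and below all of them for 276 of the fallen ones. With the genes split by intensity into 4 equal bins, the share called was 2.45% in the dimmest bin and 18.9% in the second brightest, so dim genes were seldom called.

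**Figure D1:**
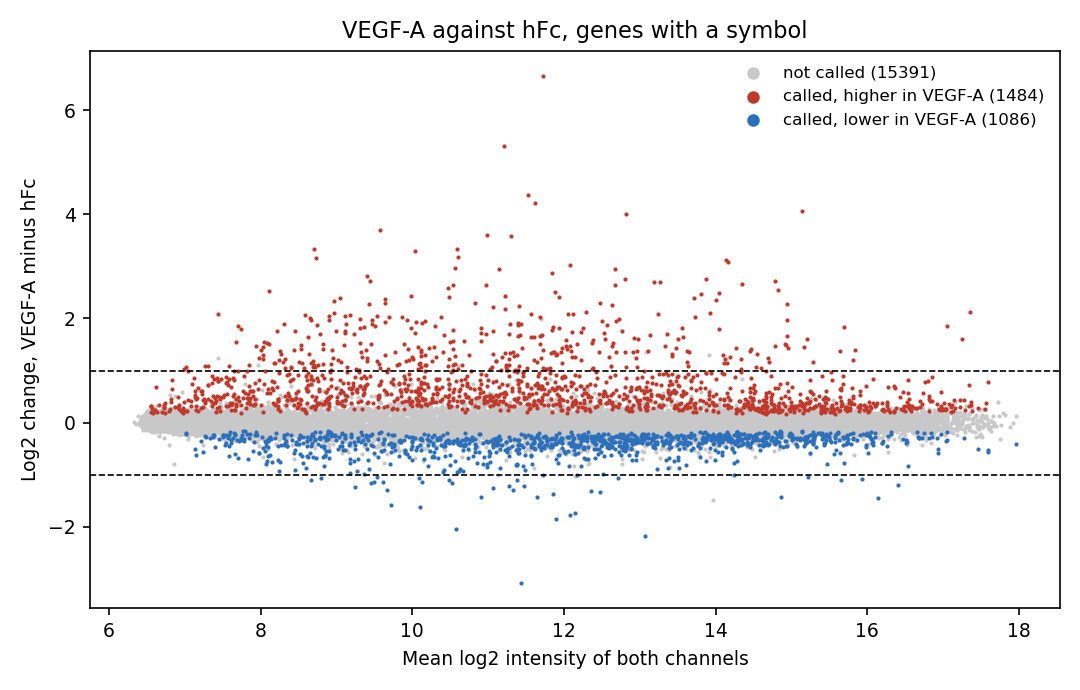
Log2 change, VEGF-A minus hFc, against mean log2 intensity for the tested genes that have a symbol, 1 point a gene. The 1484 called rises among them are red, the 1086 called falls blue and the rest grey; dashed lines mark a 2-fold change, which far more rises than falls pass.

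The 4 hFc arrays shared a slide that held no other group, while VEGF-A 1 and 2 lay on the third slide and VEGF-A 3, 4 and 5 on the fourth, so slide and treatment cannot be told apart. The hFc slide also carried many more spots that the scanner software marked as outliers, 2350 to 2599 an array against 18 to 213 on the VEGF-A arrays and many of them lay in a band of 159 of the 532 array rows. Those spots were set to missing, and 119 called genes had fewer than 3 hFc values. Log ratios of the hFc arrays correlated with each other at 0.39 to 0.823 across genes. Those of VEGF-A arrays correlated at 0.582 to 0.858 within a slide and 0.378 to 0.555 between slides. Within each group the arrays also differed in the X-inactivation transcript Xist and the Y-linked Kdm5d: Xist was high and Kdm5d low on hFc 1, VEGF-A 1 and VEGF-A 2 (Xist 1.45, 1.51 and 1.70; Kdm5d -4.80, -5.40 and -4.78), and the other 6 arrays showed the opposite (Xist -5.50 to -3.33; Kdm5d 0.196 to 0.752). The VEGF-A split in these genes is therefore also the split between the third and the fourth slide. Neither gene was called. Among the 322 genes called up at least 2-fold and measured on all 9 arrays, hFc 4 was the hFc array nearest to VEGF-A for 230 (71.4%).

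Markers of retinal cell types were read on the same arrays. None of 6 rod, 4 cone and 4 bipolar markers tested was called, and a further bipolar marker on the array could not be tested. Of 6 ganglion cell markers 1 fell, the transcription factor Pou4f2 (call lost without hFc 2, hFc 3, VEGF-A 1 or VEGF-A 2; -1.03 to -0.486 over the settings tried), and their mean level was -0.797 and -0.733 on VEGF-A 1 and 2 but -0.064, 0.0238 and 0.159 on VEGF-A 3 to 5, beside 0.00578 to 0.0609 on the hFc arrays. Of 6 amacrine and horizontal cell markers 2 fell (Gad1 and Tfap2a), with means of -0.409 to -0.147 against -0.0428 to 0.0332. Of 7 Müller glia markers Aqp4 and Glul fell and Slc1a3 rose. Of 6 endothelial markers 3 rose (Pecam1, Cdh5 and Tie1, the last lost without hFc 3, 0.23 to 0.326 over the settings) and 1 fell, the tight junction protein Cldn5. Of 6 mural cell markers Acta2 and Cspg4 rose while Kcnj8 and Abcc9 fell. Of 3 erythroid markers measured 2 rose, the haemoglobin gene Hba-a1 (1.61) and the haem enzyme Alas2 (1.26), and their mean level was -0.922 to -0.233 on the hFc arrays and 0.00828 to 0.927 on the VEGF-A arrays. None of the 5 lens markers measured was called, but their mean level set single arrays apart. It was 1.28 on hFc 4 beside -2.61 to -2.55 on hFc 1 to 3. On VEGF-A 2 it was 0.219, beside -2.84 to -1.94 on the other VEGF-A arrays. The part of lens RNA in the values of hFc 4 and VEGF-A 2 was not tested. The part of changed cell numbers in the results below was not tested.

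The genes of the contractile actin cytoskeleton rose together. Serum response factor (SRF) and its actin-sensing coactivators, the MRTFs, switch on these genes through a short promoter element named the CArG box. Of 28 tested genes on a list of SRF and MRTF targets 23 rose and none fell, with a median change of 1.46 beside -0.0255 over all genes tested. The RefSeq promoters (GRCm38.p6; 250 bases before to 50 after the start) held a CArG box in 6 of the 22 listed genes that had a promoter in the table: Actg1, Cnn2, Fhl2, Myl9, Srf and Vcl. By promoter that was 7 of 26 (26.9%), beside 535 of all 32851 promoters of the same length (1.63%), 13 of 319 promoters of genes called up at least 2-fold (4.08%) and 10 of 1108 of genes called down (0.903%). A match is a description of the letters and not a measured site. The list was made by hand of SRF and MRTF targets, so its share describes the list and not the response to VEGF-A. Of the 6 genes with a box, Cnn2, Fhl2, Myl9 and Vcl rose, while Actg1 and Srf were not called up. The 180 bases before the start of 3 of these genes are shown because each holds a single match and each gene is described below; the capitals mark the CArG box, whose pattern is the same on both strands.
Cnn2: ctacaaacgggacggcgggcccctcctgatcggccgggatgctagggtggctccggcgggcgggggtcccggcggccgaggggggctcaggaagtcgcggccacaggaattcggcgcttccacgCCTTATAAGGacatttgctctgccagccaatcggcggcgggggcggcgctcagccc
Myl9: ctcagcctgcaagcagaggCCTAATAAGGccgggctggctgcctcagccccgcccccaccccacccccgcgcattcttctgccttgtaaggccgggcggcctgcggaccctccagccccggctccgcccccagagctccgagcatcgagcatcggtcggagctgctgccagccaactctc
Fhl2: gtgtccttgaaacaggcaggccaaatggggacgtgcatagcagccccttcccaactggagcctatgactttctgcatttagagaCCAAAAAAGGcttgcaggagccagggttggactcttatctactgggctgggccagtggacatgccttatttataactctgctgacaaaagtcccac
They lie at chr10:79988420-79988599 on the plus strand, chr2:156775284-156775463 on the plus strand and chr1:43196762-43196941 on the minus strand, and the box begins 56, 161 and 96 bases before the start of transcription.

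Cnn2 codes for calponin 2, which binds actin filaments. Its level was -0.59, -0.53, -0.60 and -0.50 on hFc 1 to 4, and 1.04, 1.01, 1.25, 1.14 and 1.04 on VEGF-A 1 to 5. The 2 groups were far apart and each was tight (log2 change 1.65, SE 0.075, adjusted p 1.84e-10). Myl9, the regulatory light chain of smooth muscle myosin, read -0.32, -0.29, -0.28 and -0.06 on hFc 1 to 4, and 1.09, 0.93, 1.28, 1.33 and 1.34 on VEGF-A 1 to 5, with hFc 4 the highest control (log2 change 1.43, SE 0.106, adjusted p 5.19e-08). Fhl2, a LIM domain cofactor that binds SRF, rose as well (log2 change 1.7, SE 0.0921, adjusted p 1.55e-09). Transgelin (Tagln), an actin-bundling protein of smooth muscle, had one of the largest changes: -2.21, -2.38, -2.46 and -1.96 on hFc 1 to 4, and 1.81, 1.61, 1.59, 1.87 and 1.84 on VEGF-A 1 to 5. No array of one group came near the other, and the rise was 16-fold (log2 change 4.0, SE 0.128, adjusted p 3.57e-12).

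The rise covered nearly all tropomyosins and calponins measured, 10 of 11 with a median of 1.65. All of these 10 but Tpm3 and Cnn3 are also among the 23 risers of the SRF list. Tropomyosin 2 (Tpm2), which lies along the actin filament, read -1.02, -0.89, -1.07 and -0.60 on hFc 1 to 4, and 1.26, 1.2, 1.52, 1.55 and 1.5 on VEGF-A 1 to 5 (log2 change 2.3, SE 0.112, adjusted p 4.84e-10; its other 2 probes changed by 0.43 and 2.12). Transgelin 2 (Tagln2) rose 5.82-fold and calponin 1 (Cnn1) 5.04-fold. Smooth muscle actins rose too, with Acta2 at a log2 change of 4.07 and Actg2 at 2.58; the other 3 Acta2 probes changed by 0.74 to 3.37. By contrast the non-muscle actin Actb changed by 0.22 (adjusted p 0.195) and Srf itself by 0.10 (adjusted p 0.261), neither called. Across 41 actins and actin regulators 12 rose and 2 fell, and the median was 0.0456. The called members split: the filament-capping protein Capg (2.69) and the Arp2/3 subunit Arpc1b (1.41) rose, and the neuronal profilin Pfn2 fell (-0.46). Csrp3, a LIM protein of striated muscle, also fell, from levels of 0.24 to 0.57 on the hFc arrays to -1.08 to -0.81 on the VEGF-A arrays (log2 change -1.38, SE 0.085, adjusted p 6.61e-09). Of the mural cell markers, Acta2 is also on the SRF list, and Kcnj8 and Abcc9 fell beside it; fewer or more mural cells and changed RNA per cell cannot be told apart here.

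**Figure D2:**
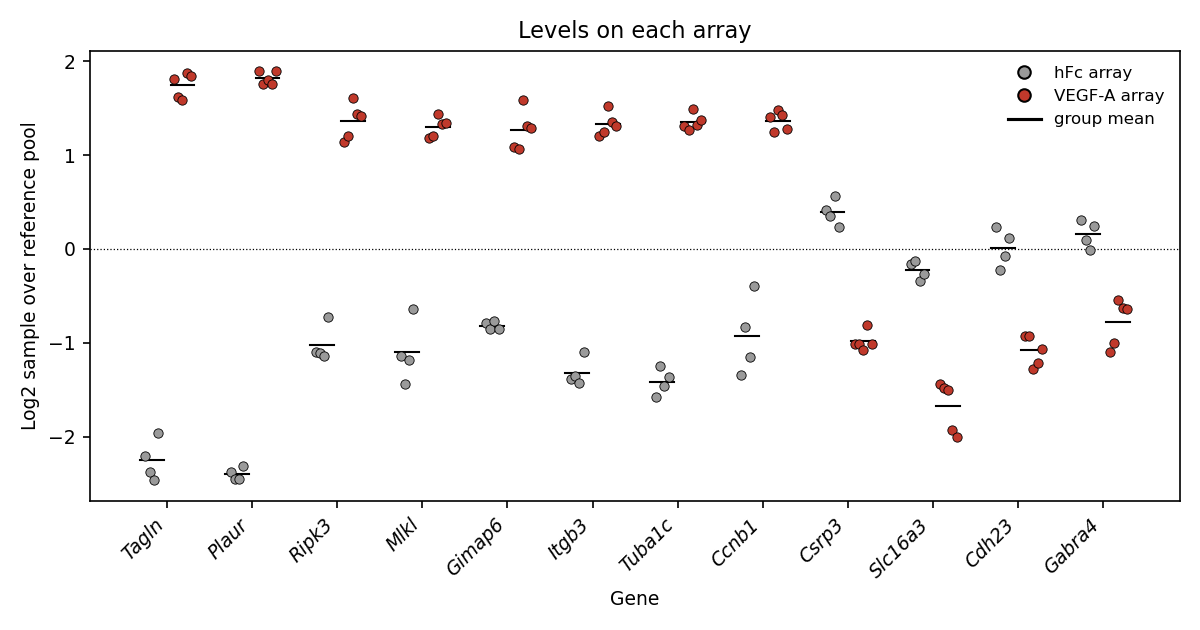
Log2 sample over reference on each of the 4 hFc arrays (grey) and 5 VEGF-A arrays (red) for 12 genes, with a bar at each group's mean. Tagln, Plaur, Ripk3, Mlkl, Gimap6, Itgb3, Tuba1c and Ccnb1 are higher on every VEGF-A array than on any hFc array, and Csrp3, Slc16a3, Cdh23 and Gabra4 lower.

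Most listed genes of coagulation and fibrinolysis, the systems that form and dissolve fibrin, rose. Of 21 tested, 14 rose, none fell and 7 were not called (median 0.823). The list was made by hand with earlier results of these data known, so the count is a description. Plasminogen activation, which starts the removal of fibrin, was well represented. The urokinase receptor Plaur read -2.38, -2.45, -2.46 and -2.31 on hFc 1 to 4, and 1.89, 1.76, 1.79, 1.76 and 1.89 on VEGF-A 1 to 5, an 18.6-fold rise, with both groups within 0.2 of their means (adjusted p 1.11e-12). Urokinase (Plau), the protease that Plaur binds, rose 6.57-fold (log2 change 2.72, SE 0.158, adjusted p 3.21e-09), and its other 3 probes changed by 0.13 to 1.47. Tissue plasminogen activator (Plat) rose 2.84-fold.

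Of the genes that start or restrain clotting, tissue factor (F3) rose 3.18-fold (log2 change 1.67, SE 0.111, adjusted p 1.55e-08), the serine protease inhibitor Tfpi2 5.79-fold and the endothelial protein C receptor (Procr) 3.61-fold. Thrombomodulin (Thbd), the endothelial cofactor that turns thrombin to protein C, did not pass the test (log2 change 0.02, SE 0.177, adjusted p 0.952). The thrombin receptors F2r and F2rl3 changed by 0.82 and 0.76, both called (F2rl3 by 0.265 with the band of marked rows left out). Tfpi2 is a case where hFc 4 stood nearer to VEGF-A: the hFc arrays read -1.31, -1.24, -0.99 and -0.36 in order and the VEGF-A arrays 1.02 to 1.99. The von Willebrand factor gene (Vwf), stored in endothelial granules, rose least of the 14 (0.33), its groups overlapped, and the call was lost without hFc 1 or hFc 3 (0.271 to 0.427 over the settings).

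The caveolar coat moved in opposite directions. Of 10 genes of caveolae and transcytosis 6 rose and 2 fell. Cavin1, the coat protein that caveolae need, read -0.36, -0.08, -0.30 and -0.03 on hFc 1 to 4, and 0.93, 0.71, 1.03, 0.97 and 0.72 on VEGF-A 1 to 5 (log2 change 1.06, SE 0.0947, adjusted p 4.8e-07). Cavin2, which shapes the same coat, fell by 1.00: -0.15, 0.47, 0.31 and 0.53 on hFc 1 to 4, and -0.30, -0.46, -0.43, -1.03 and -1.36 on VEGF-A 1 to 5 (SE 0.202, adjusted p 0.00282). Its VEGF-A arrays lay below all hFc arrays, though only narrowly below hFc 1. Cavin3 rose (0.95; its second probe changed by -0.10), as did Ehd2, an ATPase at the caveolar neck (0.92). Caveolin 1 (Cav1), the membrane scaffold of the coat, changed by 0.17 and was not called (adjusted p 0.347).

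GIMAP GTPases are a small clustered family best known in lymphocytes. Of 7 tested, 5 rose and none fell, with a median of 1.33, and in 5 of the 7 the groups did not overlap. Gimap6 read -0.79, -0.85, -0.77 and -0.85 on hFc 1 to 4, and 1.08, 1.06, 1.58, 1.31 and 1.29 on VEGF-A 1 to 5 (log2 change 2.08, SE 0.0987, adjusted p 3.25e-10), and its second probe changed by 2.04. Gimap4 rose 4.2-fold, Gimap9 2.68-fold, Gimap5 2.51-fold and Gimap1 2.02-fold. Gimap3 changed by -0.09 and was not well above background on any hFc array. Among microglia markers, which mark the main resident leukocyte, Tmem119 rose and Cx3cr1 fell of 6 (Cx3cr1 -0.548 to -0.239 over the settings, not called without hFc 1, 2 or 4 or VEGF-A 1, 3 or 4), and the mean level was -0.362 to -0.208 on the hFc arrays and -0.343 to -0.22 on the VEGF-A arrays.

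A pair of genes of lytic cell death moved far more than the rest of that machinery. Ripk3 is the kinase of necroptosis and Mlkl the pore-forming protein it phosphorylates. Ripk3 read -1.1, -1.11, -1.14 and -0.73 on hFc 1 to 4, and 1.14, 1.21, 1.6, 1.44 and 1.42 on VEGF-A 1 to 5, a 5.21-fold rise (log2 change 2.38, SE 0.103, adjusted p 9.6e-11). Mlkl read -1.15, -1.44, -1.18 and -0.64 on hFc 1 to 4, and 1.19, 1.2, 1.43, 1.33 and 1.34 on VEGF-A 1 to 5, a 5.28-fold rise (log2 change 2.4, SE 0.143, adjusted p 4.31e-09). In each the VEGF-A arrays lay within 0.5 of each other and hFc 4 was the highest control. Ripk1, the kinase upstream of Ripk3, changed by 0.64 and caspase 8 (Casp8), which cleaves both kinases, by 0.72, also called. Of 36 genes of necroptosis and pyroptosis these 4 rose and 4 fell (Casp6, Nlrp2, Casp12 and Nlrp6), and the median was -0.0819. The 4 falls were small (-0.359 to -0.186), with ranges over the settings of -0.932 to -0.308 for Casp12, -0.279 to -0.0571 for Nlrp2 and -0.241 to 0.0137 for Nlrp6, and only 1 or 2 of them were called without any one hFc array but hFc 4 or any one VEGF-A array but VEGF-A 3. The pyroptosis genes Casp1 (0.08) and Gsdmd (-0.02) and the nucleic acid sensor Zbp1 (-0.12) were not called.

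Cytokine receptors rose in small numbers out of large families. Of 38 TNF ligands, receptors and TRAFs 8 rose and 3 fell, and 5 rose without hFc 1 or hFc 2; 1 fell without hFc 2 or hFc 3 and 5 without VEGF-A 3. Tnfrsf11b, the decoy receptor osteoprotegerin, rose 3.77-fold (a log2 change of 1.91, or 0.739 with the band of marked array rows left out) and Tnfrsf1a, the main TNF receptor, 2.02-fold, while the ligand Tnfsf9 fell by 0.70 on the log2 scale. Tnfrsf12a, the TWEAK receptor, had a value on hFc 2 alone among the controls (-1.41) beside 1.45 to 1.82 on the VEGF-A arrays, so its change of 3.08 rests on 1 control array. Of 72 interleukins and receptors 11 rose and 1 fell, and the median was -0.0125. With the band of marked rows left out 6 rose, and the falls numbered 2 without hFc 1, 3 without hFc 4 or VEGF-A 3 and 5 with the third slide alone. The interleukin-1 receptor Il1r1 read -0.48, -0.53, -0.44 and -0.43 on hFc 1 to 4, and 0.65, 0.83, 0.92, 0.93 and 0.71 on VEGF-A 1 to 5 (log2 change 1.28, SE 0.0697, adjusted p 1.58e-09). Il23a, a subunit of interleukin-23, rose 2.58-fold and Il2rg, the common gamma chain, 2.55-fold.

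Of 18 genes of the STAT3 and IL-6 family response 8 rose and none fell (median 0.454). They included the oncostatin M receptor Osmr (1.43), the transcription factor Cebpd (1.61) and Stat3 itself (0.89). The metalloproteinase inhibitor Timp1, on the same list, rose 4.94-fold, a log2 change of 2.31, which was 1.36 with the band of marked rows left out and 1.46 with probes averaged. Of 4 astrocyte markers Gfap, the intermediate filament of astrocytes and stressed Müller glia, rose (2.26) and 3 were not called. The median change of the 4 was 0.025 and the lowest -0.373. In the EGF family of 13, 5 rose and 1 fell. The ligands Areg (1.82, second probe 0.17), Hbegf (0.82), Btc (0.51) and Ereg (0.20) and the receptor Erbb3 (0.44; other 4 probes -0.16 to 0.20) rose, though Ereg was not called without hFc 1, 2 or 4 or VEGF-A 1, 4 or 5 (0.124 to 0.275 over the settings) nor Erbb3 with the fourth slide alone. The receptor Egfr fell (-0.43; not called without hFc 2, with -0.496 to -0.251 over the settings).

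Ras-like GTPases, the switches that govern shape and adhesion, had 12 rises and 2 falls among 37. Rhoc, which acts on stress fibres, rose 2.25-fold (log2 change 1.17, SE 0.0834, adjusted p 6.66e-08), and Rhog, Ralb and Rhod rose by 0.61 to 0.76 (Ralb by 0.36, not called, with the band of marked array rows left out). Rnd2, a small GTPase of neurons, fell by 0.47. With the third slide's VEGF-A arrays alone the falls of this family numbered 6, and with the fourth slide's alone 1.

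**Figure D3:**
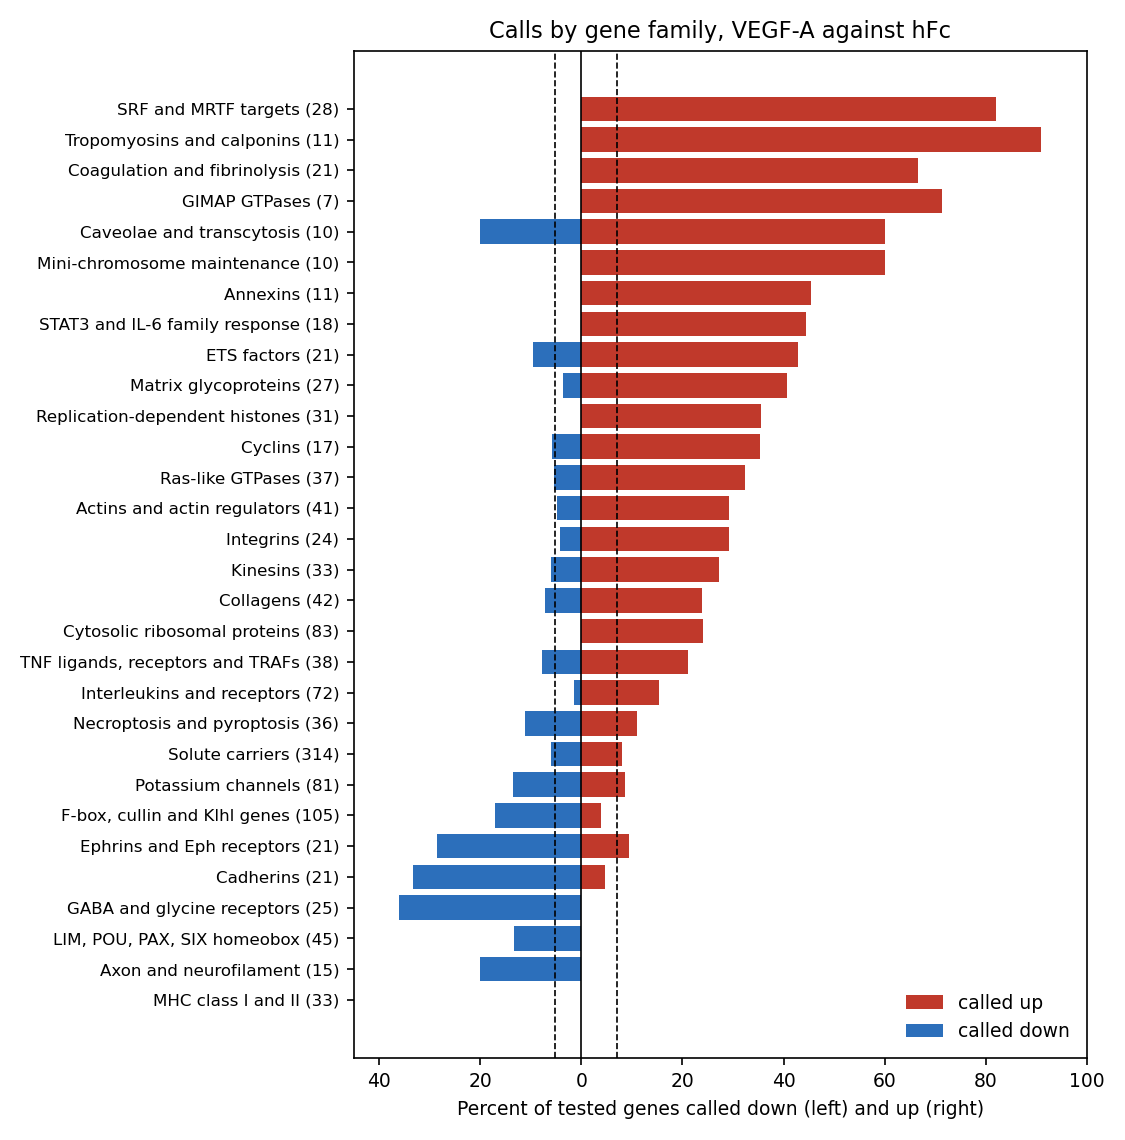
Percent of tested genes called up (red, to the right) and called down (blue, to the left) in 30 gene families and lists, with the number tested after each name. The dashed lines mark the shares over all 22820 genes tested, 7.00% up and 5.21% down. Some sets share genes, such as the SRF targets and the tropomyosins and calponins.

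In several transcription factor families some members rose and others fell. Of 21 ETS factors, a family that includes the regulators of endothelial genes, 9 rose and 2 fell (median 0.26). Elk3 read -0.44, -0.24, -0.51 and -0.36 on hFc 1 to 4, and 0.87, 0.79, 0.82, 0.90 and 0.90 on VEGF-A 1 to 5 (log2 change 1.24, SE 0.0614, adjusted p 5.27e-10), and its other 2 probes changed by 1.19 and 1.26. Etv4, which follows growth factor signalling, rose 3.57-fold and the endothelial factor Erg 2.15-fold, though a second Erg probe changed by 0.11. The 2 that fell, Elf5 (-0.71) and Ehf (-0.45), are ETS factors of epithelia.

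Of 31 AP-1 and ATF factors 9 rose and 3 fell. Maff, a small Maf protein without its own activation domain, read -1.56, -1.42, -1.39 and -1.12 on hFc 1 to 4, and 1.46, 1.44, 1.87, 1.66 and 1.59 on VEGF-A 1 to 5, a 7.87-fold rise with hFc and VEGF-A arrays far apart. Fosl1 rose 2.94-fold, and the large Maf protein Maf (-0.62) fell. In the EGR, NR4A, IER and BTG genes, which respond fast to stimuli, Egr2 rose 7.08-fold and Nr4a1 2.36-fold, while its paralog Nr4a2 fell (-0.45, groups overlapping; not called without hFc 1, with -0.53 to -0.334 over the settings) and Egr3 changed by 0.01. Of 36 forkhead factors 6 rose and 5 fell: Foxm1, the driver of mitotic genes, rose 2.98-fold, the vascular factors Foxc2 and Foxf2 rose by 0.80 and 0.73, and the falls, at most 0.49 in size, numbered 2 or 3 without any one of hFc 2, 3 and 4 and VEGF-A 2, 4 and 5. No member of the 45 LIM, POU, PAX and related homeobox genes, many of which specify retinal neurons, rose and 6 fell (median -0.176), among them the neural POU factor Pou3f3 (-0.33) and Pou4f2 (-0.71), the ganglion cell marker; 2 or 3 were called without hFc 2, hFc 3 or VEGF-A 1. Of 37 Hox genes none was called.

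Members of each cell division family examined rose, from cyclins to replication factors and histones. CCAAT boxes bind the factor NF-Y, which sits in the promoters of many mitotic genes. Among 18 promoters of the 17 cyclin, centromere and mitotic kinesin genes called up that are in the table, 13 held CCAAT on either strand (72.2%), beside 37.4% of all 32851 promoters, 36.1% of the promoters of genes called up at least 2-fold and 36.6% of those called down. The gene set was chosen by its calls, so this share is a description. The sequence TGANTCA, which AP-1 factors bind, was in 7.81% of all promoters, 8.15% of those of genes up at least 2-fold and 4.96% of those called down. Matches were counted whether or not they overlapped another motif. The 180 bases before the start of both B-type cyclins are shown because each holds more than 1 CCAAT, in capitals where it reads CCAAT or, for the other strand, ATTGG.
Ccnb1: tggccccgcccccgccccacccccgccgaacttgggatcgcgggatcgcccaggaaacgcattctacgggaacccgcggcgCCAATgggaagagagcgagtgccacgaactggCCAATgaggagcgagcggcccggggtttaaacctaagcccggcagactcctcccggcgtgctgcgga
Ccnb2: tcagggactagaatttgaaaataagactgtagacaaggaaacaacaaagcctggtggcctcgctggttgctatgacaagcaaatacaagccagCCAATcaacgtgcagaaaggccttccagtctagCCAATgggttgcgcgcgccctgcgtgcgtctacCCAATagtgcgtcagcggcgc
They lie at chr13:100786487-100786666 and chr9:70421555-70421734, both on the minus strand, with 2 matches in Ccnb1 and 3 in Ccnb2.

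Cyclin B1 (Ccnb1), which drives entry into mitosis, read -1.34, -0.83, -1.15 and -0.39 on hFc 1 to 4, and 1.4, 1.25, 1.48, 1.43 and 1.27 on VEGF-A 1 to 5. All VEGF-A arrays were within 0.25 of each other, and the hFc arrays spread over 0.95 (log2 change 2.29, SE 0.14, adjusted p 5.71e-09). Ccnb2 rose 2.96-fold, and Ccnd2, a cyclin of early G1, 5.1-fold; on the hFc arrays Ccnd2 read -1.81, -1.09, -1.32 and 0.05, with hFc 4 again the highest. Of 17 cyclins 6 rose and Ccng2, which is high in cells leaving the cycle, fell (-0.54). All 9 kinesins that rose among 33 are motors of the spindle or midbody, led by Kif23 (3.73-fold) and Kif20a (3.14-fold), and the 2 that fell, Kif5a (-0.30) and Kif5c (-0.44), are axonal transport motors, though Kif5a was not called without hFc 1, 2 or 3 or VEGF-A 1, 2 or 4 (-0.406 to -0.227 over the settings) nor Kif5c without hFc 2 (-0.663 to -0.284). Of 19 centromere proteins 6 rose, of 10 MCM genes, which license DNA replication, 6 rose (median 0.558), of 15 genes of nucleotide synthesis 6 rose, and of 31 replication-dependent histones 11 rose (6 with the band of marked rows left out), with no fall in these 4 sets. Mcm3 rose 2.76-fold, Tk1, thymidine kinase, 3.52-fold and Ube2c, the ubiquitin-conjugating enzyme of the anaphase complex, 5.66-fold. Replication-dependent histones are near-identical copies that a probe may not separate. Cdkn2b, an inhibitor of cyclin-dependent kinases, rose as well, 5.29-fold.

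Tubulins, the subunits of microtubules, diverged by isotype. Tuba1c had the smallest p of the comparison, tied with the adhesion molecule Mcam: -1.58, -1.25, -1.46 and -1.37 on hFc 1 to 4, and 1.31, 1.27, 1.49, 1.32 and 1.37 on VEGF-A 1 to 5 (log2 change 2.77, SE 0.0668, adjusted p 2.4e-13). Tubb6 rose 8.72-fold by its brighter probe, and its second probe changed by -0.19. The neuronal Tubb3 fell (-0.40). Of 17 tubulins 4 rose and 1 fell, and 4 fell with the VEGF-A arrays of the third slide alone.

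Genes of the matrix and of adhesion rose at selected members. Of 24 integrins 7 rose and 1 fell. Itgb3, the beta chain of the vitronectin receptor, read -1.38, -1.36, -1.43 and -1.1 on hFc 1 to 4, and 1.2, 1.25, 1.52, 1.35 and 1.31 on VEGF-A 1 to 5 (log2 change 2.64, SE 0.0813, adjusted p 2.63e-12); a second probe changed by 0.35. Itga5, the fibronectin receptor chain, rose 3.85-fold and Itga8 fell by 0.38. Of 27 matrix glycoproteins 11 rose and 1 fell (median 0.289), led by Ccn1 (2.87) and Ccn2 (2.66), matricellular proteins, with Mmrn2, an endothelial elastin microfibril protein (1.7), and the basement membrane protein Nid2 (2.0).

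Of 42 collagens 10 rose and 3 fell, and the median depended on the slide: 0.0195 in all, 0.28 with VEGF-A 1 and 2 and -0.126 with VEGF-A 3 to 5. Col13a1, a membrane collagen, rose 3.76-fold (log2 change 1.91, SE 0.15, adjusted p 1.04e-07) and Col15a1 4.15-fold, with 1 lower VEGF-A array (0.48 on VEGF-A 3 beside 1.22 to 1.41; second probe 0.14). Col2a1, the collagen of cartilage and vitreous, fell (-1.2): the VEGF-A arrays read -0.51 and -0.63 on the third slide and -1.11, -1.35 and -1.37 on the fourth. Among 24 matrix metalloproteinases and inhibitors 7 rose and 4 fell, 1 of them without hFc 1. Mmp3 was not well above background on any hFc array, so its control level is only a bound; the measured change was 2.09 (adjusted p 4.75e-08). Adamts1, a secreted protease that cleaves proteoglycans, read -1.28, -1.07, -1.15 and -1.03 on hFc 1 to 4, and 1.13, 1.27, 1.4, 1.23 and 1.31 on VEGF-A 1 to 5 (log2 change 2.4, SE 0.068, adjusted p 1.11e-12), and 8 of 46 ADAM and ADAMTS genes rose with 1 fall.

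Annexins and S100 proteins, calcium-binding partners at membranes, rose in part. Of 11 annexins 5 rose, among them Anxa2 (1.96), Anxa3 (1.7) and Anxa5 (1.45); Anxa1 rose by 2.1, with hFc arrays at -0.85, -1.18, -1.22 and 0.54. Of 14 S100 genes 4 rose, led by S100a6 (6.79-fold). The 4-transmembrane MAL, MARVEL and EMP proteins had 8 rises and 1 fall of 22. Emp1 rose 9.84-fold (-2.1 to -1.19 on hFc, 1.4 to 1.87 on VEGF-A; second probe 0.85), Mall 5.37-fold and Plp2 2.83-fold. Ocln, the tight junction protein occludin of the same group, fell by 0.73.

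Lipid mediator receptors and stress genes rose in part. Of 12 sphingolipid and lysolipid genes 6 rose and 1 fell: S1pr1, the endothelial receptor for sphingosine 1-phosphate, rose 1.9-fold (-0.16 to -0.02 on hFc, 0.77 to 0.99 on VEGF-A), and its paralog S1pr3 fell (-0.48). Of 26 genes of the integrated stress and unfolded protein response 8 rose and none fell (5 rose without hFc 2 or VEGF-A 3), with Atf3, a stress-induced ATF factor, at 1.31, while the stress factor Ddit3 changed by 0.10 (adjusted p 0.53). Of 21 ephrins and Eph receptors, guidance molecules between neighbouring cells, 6 fell (3 without hFc 3 or hFc 4) and 2 rose; Epha2 rose 2.59-fold (log2 change 1.38, SE 0.1, adjusted p 4.43e-08) and Ephb6 fell (-0.40).

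Many of the families with falls above the background are neuronal, and their counts differed between the slides. Of 25 GABA and glycine receptor genes, which carry fast inhibition, 9 fell and none rose (median -0.268). Gabra4 read 0.31, 0.09, -0.01 and 0.25 on hFc 1 to 4, and -1.1, -1.0, -0.55, -0.63 and -0.64 on VEGF-A 1 to 5, with the VEGF-A arrays of the third slide lowest (log2 change -0.94, SE 0.157, adjusted p 0.000528). Gabra2 fell too: 0.20, 0.41, 0.31 and 0.27 on hFc 1 to 4, and -1.02, -0.88, -0.76, -0.26 and -0.06 on VEGF-A 1 to 5 (log2 change -0.89, SE 0.159, adjusted p 0.000969). The count of falls was 13 with VEGF-A 1 and 2 alone and 5 with VEGF-A 3 to 5 alone. Of 21 cadherins 7 fell and 1 rose, the endothelial Cdh5 (0.98); Cdh23, a cadherin of hair cell and photoreceptor links, read 0.24, -0.22, -0.07 and 0.11 on hFc 1 to 4, and -0.93, -0.92, -1.28, -1.21 and -1.06 on VEGF-A 1 to 5 (log2 change -1.09, SE 0.135, adjusted p 2.34e-05), and its other 2 probes changed by -1.17 and -0.13. Cadherin falls numbered 10 with the third slide alone and 4 with the fourth. The ganglion cell markers above moved with the same arrays, and their part in these falls was not tested.

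**Figure D4:**
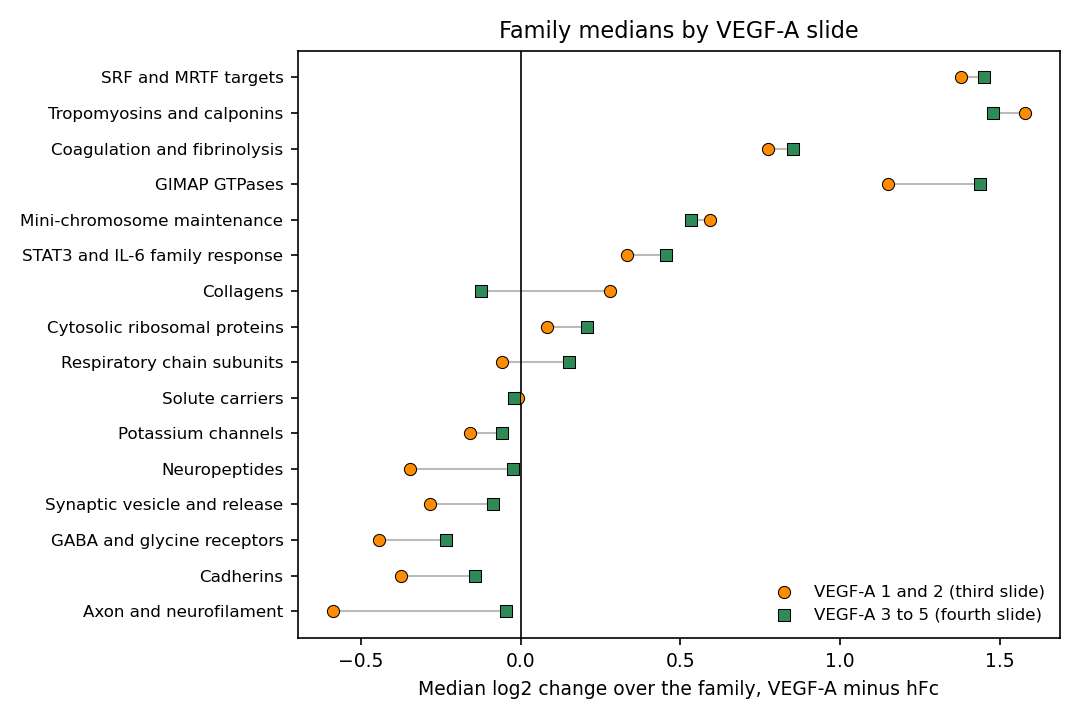
Median log2 change against the 4 hFc arrays in 16 families and lists, taken with VEGF-A 1 and 2 of the third slide (circles) and with VEGF-A 3 to 5 of the fourth (squares). The contractile, coagulation and GIMAP sets lie above 0.7 on both slides; axon and neurofilament genes are at -0.589 on the third slide and -0.0471 on the fourth.

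Of 15 axon and neurofilament genes 3 fell, 13 with the third slide alone and 1 with the fourth (medians -0.589 and -0.0471). Of 26 neuropeptide genes 3 fell and 2 rose, and 12 fell with the third slide alone against 1 with the fourth, and 6 without VEGF-A 3. Adcyap1, the neuropeptide PACAP, fell on all 5 VEGF-A arrays: 0.44, 0.25, 0.45 and 0.21 on hFc 1 to 4, and -1.44, -1.29, -0.60, -0.72 and -0.77 on VEGF-A 1 to 5 (log2 change -1.3, SE 0.145, adjusted p 6.74e-06). Synaptic vesicle and release genes had 4 falls of 20 (2 without hFc 2), 9 with the third slide and 2 with the fourth. Of 22 glutamate receptor genes 3 fell and 1 rose.

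Channels and transporters fell and rose by member. Of 81 potassium channel genes 11 fell and 7 rose, with 21 falls on the third slide alone and 6 on the fourth, and 5 and 7 without hFc 2 and hFc 3. Kcnq1 rose (1.04; other 4 probes -0.09 to 1.01) together with its accessory subunit Kcne3 (4.37), and Kcne1, the accessory subunit of the cardiac channel of Kcnq1, fell (-0.97). Of 11 organic anion transporters Slco1c1, Slco2b1 and Slco1a4, carriers of thyroid hormone and steroid conjugates at the blood-brain barrier, fell, by 3.07, 1.01 and 0.95; the only riser, Slco6d1 (0.20), was not well above background on any hFc array and lost its call without hFc 1, 2 or 3 or VEGF-A 1, 2, 3 or 5 (0.117 to 0.443 over the settings). Of 314 solute carriers 25 rose and 19 fell, near the background shares. Slc43a1 and Slc1a5, amino acid carriers, rose 3.92-fold and 2.57-fold. Slc16a3, the lactate exporter MCT4, read -0.16, -0.13, -0.34 and -0.27 on hFc 1 to 4, and -1.44, -1.48, -1.5, -1.93 and -2.0 on VEGF-A 1 to 5 (log2 change -1.45, SE 0.112, adjusted p 8.26e-08), below every hFc array on all 5.

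Other large falls included Ak4, a mitochondrial adenylate kinase (-1.26), Bnip3, a mitophagy receptor (-1.08), the erythropoietin receptor Epor (-1.07) and the aminopeptidase Anpep (-1.14). Bnip3 read -0.39 to -0.07 on the hFc arrays and -1.47 to -1.16 on the VEGF-A arrays. Glul, glutamine synthetase of Müller glia, fell to -0.49 on VEGF-A 3 and to -1.19 to -1.01 on the other 4, from 0.33 to 0.55 (log2 change -1.44, SE 0.238, adjusted p 0.000506). Of 16 carbonic anhydrases 4 fell, Car4 (-0.92) and Car14 (-0.78; -0.39 and not called with the third slide's VEGF-A arrays alone) among them, and Car13 rose (1.3). Of 11 aquaporins 3 fell, Aqp4 (-1.78), Aqp9 (-0.87) and Aqp6 (-0.67), and 2 rose, Aqp5 (0.68; not called with the third slide's VEGF-A arrays alone) and Aqp1 (0.45). The groups overlapped for Aqp6 and Aqp1; Aqp6 was not called without any one hFc array or VEGF-A 1 or 2 (-1.2 to -0.313 over the settings), nor Aqp1 without hFc 1, 2 or 3 or VEGF-A 1, 2, 3 or 4 (0.325 to 1.08). The retinoic acid hydroxylases diverged: Cyp26a1 rose 3.67-fold and Cyp26b1 fell by 0.93, though 2 other Cyp26b1 probes changed by -0.09 and 0.03, and its value with the band of marked array rows left out was -0.09.

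The medians of housekeeping families moved little, and in several the count of calls differed between the slides. Of 83 cytosolic ribosomal protein genes 20 rose and none fell, with a median of 0.155. Rps12 was the member with the smallest p (0.50; second probe -0.14). The count was 8 with the third slide alone and 27 with the fourth, and it also moved with the signal used: 5 with the Cy3 channel alone, 8 with the scanner's own log ratio, 11 in the deposited series matrix and 13 with the band of marked rows left out. Of 81 respiratory chain subunits 2 rose and 2 fell, with changes of -1.85 to 0.323 over the members. The rises numbered 1 with the third slide alone, 12 with the fourth and 0 without hFc 1, 2 or 4 or VEGF-A 5. The median was -0.0585 with the third slide and 0.151 with the fourth. Of 74 mitochondrial ribosomal proteins 3 rose, 1 with the third slide alone and 8 with the fourth. Of 23 cholesterol genes 7 rose, 3 with the third slide, 10 with the fourth and 4 without any one of hFc 2, hFc 3, VEGF-A 4 and VEGF-A 5, including the sterol sensor partner Insig1 (0.71). F-box, cullin and Klhl genes, substrate receptors of ubiquitin ligases, had 18 falls and 4 rises among 105, with the E3 adaptor Klhl6 the largest rise (1.77). Zinc finger genes had 25 falls and 8 rises among 357, so the falls were 7.00% against the background of 5.21%. That excess was gone without hFc 2 or hFc 3, with 10 falls each (2.82% of them, beside 3.04% and 3.19% of all genes). The falls of the F-box set numbered 17 and 7 on the third and the fourth slide, and 11 without hFc 3 or VEGF-A 1.

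Whole families stayed at or under the background. None of 33 MHC class I and II genes and none of 19 connexins and pannexins was called. Of 39 Wnt and frizzled genes 1 was called, and of 879 olfactory and vomeronasal receptors 13 (1 rise and 12 falls). The falls of these receptors numbered 4 without hFc 1 or hFc 3, 6 without hFc 2, 7 without VEGF-A 2 or VEGF-A 4 and 24 without VEGF-A 3, and 27 to 34 with the scanner's own log ratio, the series matrix or no background correction; the rises numbered 6 without hFc 4. Of 22 phototransduction genes 1 rose, Rgs9 (0.89), the GTPase accelerator of photoreceptors. A lack of calls here does not show that these genes did not change.

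Some large changes were in genes with little described function. Of 444 Tmem, Fam and Ccdc genes 25 rose and 28 fell, and of 898 RIKEN clones 35 rose and 30 fell, so their shares of rises, 5.63% and 3.90%, lay under the background of 7.00%. Without hFc 2 the falls were 17 and 11, and those of the Tmem, Fam and Ccdc genes were also 16 without hFc 3 and 17 without VEGF-A 1. The falls among the RIKEN clones were also 18 without hFc 1, 11 without hFc 3, 16 without VEGF-A 1, 15 without VEGF-A 2 and 47 without VEGF-A 3, and their rises were 23 without hFc 3. Fam167b read -1.18, -1.34, -1.41 and -0.77 on hFc 1 to 4, and 1.1, 1.04, 1.4, 1.41 and 1.35 on VEGF-A 1 to 5, a 5.41-fold rise (log2 change 2.44, SE 0.115, adjusted p 3.08e-10). Ccdc68 rose 3.8-fold, Tmem204, an adherens junction protein, 2.9-fold, and the clone 5730416F02Rik rose by 1.88 on the log2 scale, each with all VEGF-A arrays above the 11 others. AU021092 fell: 0.49, 0.53, 0.49 and 0.45 on hFc 1 to 4, and -0.85, -0.78, -0.41, -0.75 and -0.56 on VEGF-A 1 to 5 (log2 change -1.16, SE 0.0925, adjusted p 1.31e-07). 9630028B13Rik fell 2.69-fold (log2 change -1.43, SE 0.197, adjusted p 0.000105). Smaller falls were those of Ccdc85a (-0.75; other 2 probes -0.24 and -0.02) and Fam162b (-0.62), each with both groups apart.

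Several genes with a protein class but few described roles also stood among the largest rises. Olfml2b, an extracellular olfactomedin protein, read -1.66, -1.71, -1.75 and -1.45 on hFc 1 to 4, and 1.51, 1.52, 1.33, 1.27 and 1.29 on VEGF-A 1 to 5 (log2 change 3.03, SE 0.103, adjusted p 6.73e-12). Exoc3l2 rose 9.02-fold, Btnl9, a butyrophilin-like protein, 9-fold and Lad1, a basement membrane anchor protein, 7.71-fold; the other probes of Exoc3l2 changed by 0.41 and 1.43, and those of Btnl9 by 0.01 to 3.39. Dmp1, an acidic matrix protein of bone and dentin, read -1.99, -2.1, -2.04 and -0.57 on hFc 1 to 4, and 1.31, 1.55, 1.68, 1.92 and 1.85 on VEGF-A 1 to 5, so hFc 4 stood apart from the other controls. Akr1b8, an aldo-keto reductase, rose 5.35-fold and Fxyd5, a regulator of the sodium pump, 7.7-fold.

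**Figure D5:**
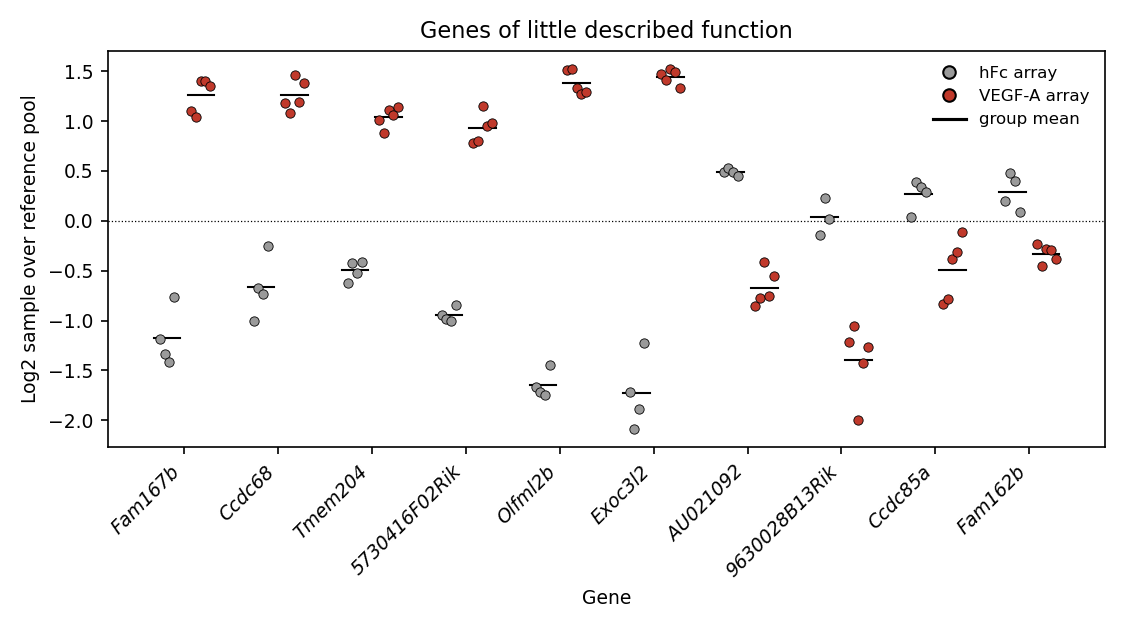
Log2 sample over reference on each hFc array (grey) and VEGF-A array (red), with a bar at each group's mean, for 10 genes of little described function. The 6 genes at the left rose and the 4 at the right fell, and in each the 2 groups do not overlap.

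VEGF Trap, a decoy that binds VEGF, shares both slides of VEGF-A and gives a second value for each gene against the same VEGF-A arrays. The 2 comparisons share the VEGF-A arrays, so their values are given side by side and not as independent support. Ripk3 changed by 2.38 against hFc and 3.19 against VEGF Trap, Gimap6 by 2.08 and 3.16, Tagln by 4.0 and 3.81, and Tuba1c by 2.77 and 2.65. Values against VEGF Trap were farther from 0 for Kcne3 (4.37 and 6.25), Slc16a3 (-1.45 and -2.5), Ak4 (-1.26 and -2.29) and Cdh23 (-1.09 and -2.0). They were nearer to 0 for AU021092 (-1.16 and -0.18, adjusted p 0.255 in the second), Insig1 (0.71 and 0.01, adjusted p 0.976) and Car4 (-0.92 and -0.29, adjusted p 0.295). Higd1b, a small mitochondrial protein of pericytes, read -1.31 against hFc and -0.19 against VEGF Trap (adjusted p 0.402). The difference between the 2 comparisons was not tested.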

How the data were processed

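RNA of whole retinas was measured on 16 Agilent 2-colour arrays, sample in Cy3 and the common pool in Cy5, with no dye swap. The deposited scanner files hold spot intensity from Agilent Feature Extraction 9.5.1.1, per the file headers, with outlier and background flags and a log10 ratio of red over green; the deposited series matrix holds natural log ratios of the same arrays, a scale found by setting it against the scanner values. From the intensities, background was corrected by normexp (offset 50), arrays were normalized by loess, spots marked as outliers were set to missing, probes were averaged, and a probe was kept where its Cy3 signal was well above background on 3 or more arrays (39788 of 43426). Each gene took its probe of highest mean intensity. Genes were named through RefSeq accessions (25775 probes), symbols (7185) or older symbols (3283), and 7183 probes kept the file's name; the probes' genome build is not stated in the labels or headers. limma 3.58.1 (R 4.3.3, statmod 1.5.0) fitted the 4 groups in one model (residual df 12, prior df 3.77), with Benjamini-Hochberg adjustment over 22820 genes and a threshold of 0.05. Every adjusted p here is from that fit. The fit was also run on simulated data with independent noise and no slide effect, so that check does not cover the difference between slides. The number of arrays limits the precision. Promoter sequences are RefSeq's (GRCm38.p6).

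Gene families were taken by symbol and lists by hand, and members and lists were chosen with earlier results of these data known. Genes were named where called, measured on at least 3 hFc and 4 VEGF-A arrays, without overlap and above background in either group: the 40 largest rises and 30 largest falls, up to 4 members of each family by p, the 12 largest rises and falls of little-described symbols, and markers. Genes named outside that rule (uncalled members, members on fewer than 3 hFc arrays, further members of a family) were chosen after their values were seen, and some genes that the rule selects are not reported here. Alternatives were other signals, background corrections, filters, probe rules, array subsets and the slide as a random block. Some family patterns were corrected and 5 families added after the files were seen.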

Additional observations from a re-analysis of the deposited data

Results flagged for a closer look

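Among 388 sets of 4 hFc or 5 VEGF-A values of the genes named, 21 held an array far from the others of its group. The measure, Dixon's ratio against its critical value, is set so that chance gives about 1 in 20. The count of 21 in 388 is near that share, so the cases below are a description. In 13 of them the group was hFc and in 8 it was VEGF-A.

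hFc 4 was the highest control, and so the nearest to VEGF-A, for genes that rose. It read -0.596 for Cnn1 (others -1.27 to -1.19), -0.505 for Col15a1 (-1.11 to -1.03), -0.568 for Dmp1 (-2.10 to -1.99), -0.168 for Fosl1 (-0.67 to -0.591) and -0.0602 for Myl9 (-0.321 to -0.28). It read -0.353 for the endothelial marker Pecam1 (others -0.56 to -0.525), -0.752 for Plau (-1.52 to -1.41), -0.726 for Ripk3 (-1.14 to -1.10), -0.758 for S100a6 (-1.45 to -1.37) and -0.434 for Tk1 (-1.02 to -0.932). In each of these genes hFc 4 lay below all 5 VEGF-A arrays. For most of them the rule that named genes asked for that, so it is no test of hFc 4. Other controls apart were hFc 1 for Kdm5d (-4.80; others 0.452 to 0.752) and Ripk1 (-0.342; others -0.118 to -0.107), and hFc 2 for Klhl6 (-0.539; others -0.761 to -0.727).

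VEGF-A 3 stood apart most often in its group. It was the highest for Aqp4 (-0.683; others -1.47 to -1.28), Glul (-0.489; others -1.19 to -1.01), Atf3 (1.25; others 0.735 to 0.858), Epha2 (1.14; others 0.859 to 0.906) and the microglia marker Tmem119 (0.44; others -0.0305 to 0.0696), and the lowest for Col15a1 (0.48; others 1.22 to 1.41). VEGF-A 4 was the highest for Csrp3 (-0.812; others -1.08 to -1.01), and VEGF-A 5 the lowest for Itga8 (-0.411; others -0.216 to -0.143).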

How the results depend on the processing

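Of 184 called genes named, 154 kept direction and call under every alternative that gave them a value (140 had one under all 26, the rest under 24 or more) and 30 lost the call under 1 or more, 15 of them under 3 or more. Those that lost it when an array was left out are named with their range in the text. It was also lost with probes averaged by Gad1, Maf, Pou3f3, Rps12, S1pr3 and Erbb3, with the third slide alone by Casp6, Itga8 and Tfap2a, with the fourth by Ocln, and with Cy3 alone by Btc and Pou3f3. Nlrp6 turned from -0.186 to 0.0137 when probes were averaged. Among the 26 alternatives, quantile scaling of the mean intensities between arrays leaves the log ratios unchanged, so it repeated the 1597 rises and 1190 falls. Most of the genes were named by a rule that asked for a call without overlap on these same arrays, which favours genes that keep their call. The number of rises stayed within 1.5 times of 1597 under every alternative that kept the threshold of 0.05 (1101 with Cy3 alone to 1822 with outlier spots kept), but the falls did not: 757 with Cy3 alone, 1800 with the VEGF-A arrays of the third slide alone, and 689 to 1480 when 1 array was left out (689 without hFc 2, 723 without hFc 3, 1480 without VEGF-A 3). Falls of at least 2-fold numbered 87 with the scanner's own log ratio, 76 in the deposited series matrix and 97 with the third slide, against 41. At an adjusted p under 0.01, 1563 genes were called and 468 fell. Rises were 57.3% of calls, from 48.1% with the third slide's VEGF-A arrays to 65.2% with the fourth's at a threshold of 0.05, and 70.1% at 0.01. The slide as a random block gave 1587 rises and 1182 falls, at a correlation within slides of 0.00276. That fit cannot separate slide from treatment, because the hFc slide held no other group. Averaging hFc 1 and 2 gave 1371 rises and 839 falls. Their titles share the first part of a code, as do those of a VEGF-A and a VEGF Trap array. hFc 1 and hFc 2 lay far apart in Xist (1.45 and -5.11) and in the Y-linked Kdm5d (-4.80 and 0.60). Values that moved by over 1.5 times included, with the scanner's own log ratio, Mmp3 (5.14), Tfpi2 (4.05), Procr (3.7), Fosl1 (2.44), Car13 (2.1), Foxc2 (1.21), Elf5 (-1.34) and Fam162b (-1.96), and with Cy3 alone Acta2 (1.24). Of 38 family counts of 1 to 3 calls, 24 moved by over 1.5 times when 1 array was left out. Of 64 families, 47 kept the sign of their median under every setting; 10, with medians near 0, changed it under another signal, background or outlier setting. The cause was not tested. No paired analysis was possible because replicate numbers are in accession order. Dim probes limit what can be seen: 2.45% of the dimmest of 4 intensity bins were called.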
